A study of Mus musculus with 8 samples.

Results

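Scavenger receptors are cell-surface and lysosomal proteins through which macrophages bind modified lipoproteins, microbes, particles and cell debris. Class A receptors carry a collagen-like stalk, class B receptors span the membrane at both ends and handle lipids, and related proteins of the same families work in the lysosome, where the cargo is broken down. The levels of 6 genes of this kind were followed here in bone marrow-derived macrophages (BMDM), namely *Marco* and *Msr1* (class A), *Cd36*, *Scarb1* and *Scarb2* (class B) and *Cd68* (a lysosomal glycoprotein), out of 53819 genes in the count table. The genes were chosen by name with earlier results of the same cultures known, *Marco* for its rise with bilirubin and the others as its family. Their differences between bilirubin and vehicle are therefore described and not tested.

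Bone marrow came from the hind legs of 4 female BALB/cJ mice aged 8 weeks. The cells were differentiated for 5 days with M-CSF (macrophage colony-stimulating factor, 25 ng/mL), and each mouse gave a culture treated for 48 h with 2.5 µM unconjugated bilirubin, a product of heme breakdown, and a culture treated with DMSO as vehicle control. The comparison asked how bilirubin alters gene expression in macrophages, with 4 libraries of poly-A selected RNA per group, paired by mouse. The labels name no genetic change in any group, and the sequenced cultures cover 1 dose and 1 time.

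Libraries held between 34142781 and 47071714 estimated counts on genes, the lowest being the bilirubin culture of mouse 1. Mitochondrial transcripts took 3.05% to 3.59% of the counts, with overlapping groups. The macrophage label was borne out by its markers, since all 8 listed genes were expressed. But their summed level was higher with bilirubin, at 26792 to 28959 CPM (counts scaled to a common library size, with TMM factors) against 22179 to 22596 CPM with vehicle. Most of that sum was *Lyz2*. In the test of all genes, 5 of the 8 were called higher, beside 4.49% of all tested genes. Nothing is read from this share. The part of these markers in the results on the scavenger receptors was not tested. Markers of B cells, T and NK cells, erythroid cells and mast cells summed to at most 0.547 CPM in any library, and *Cd3g*, *Trbc2*, *Ncr1*, *Mcpt8*, *Fcer1a* and *Tpsb2* were at 0 in all of them. The dendritic cell list lay between 0.0235 and 0.159 CPM with vehicle and between 0.194 and 0.622 CPM with bilirubin, so that these groups did not overlap, although its leading gene, *Zbtb46*, had at most 22 counts in any library. Of the osteoclast list, *Ctsk* rose (log2 fold change 1.41) while *Calcr* and *Oscar* were at 0 in all libraries. Neutrophil markers summed to 127 to 155 CPM with vehicle and to 146 to 175 CPM with bilirubin, nearly all of it *Mmp8*, and stromal and endothelial markers to 14.2 to 19.0 and 10.3 to 20.5 CPM, most of it *Kdr*. In bulk RNA, more cells that express a gene and more of its RNA per cell cannot be told apart.

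In vehicle-treated BMDM the 6 genes spanned a wide range of levels. In TPM (transcript abundance scaled for length and library), *Cd68* was the highest at 2755 ± 112 (SD, n = 4), above 99.7% of all tested genes. *Cd36* followed at 1208 ± 112 TPM and *Msr1* at 1063 ± 35.8 TPM. The ranges of *Cd36* (1096 to 1356 TPM) and *Msr1* (1043 to 1117 TPM) overlapped, and *Cd36* was the higher of the pair in 3 of 4 mice, so that their order was not resolved. *Scarb1* reached 143 ± 5.45 TPM and *Scarb2* 97.1 ± 7.02 TPM. *Marco* was the lowest at 6.42 ± 0.809 TPM, above only 33.3% of tested genes, and *Scarb2*, next above it, was 15.1 times as high. Apart from *Cd36* and *Msr1*, the ranges of neighbouring genes did not overlap, and each gene was above the next in 4 of 4 mice. With 4 mice an exact paired permutation test cannot give a two-sided p below 0.125, so this order rests on the ranges alone.

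With bilirubin the order of the means was the same for the first 4 genes. The order of *Cd36* and *Msr1* was again not resolved, with overlapping ranges of 803 to 1459 TPM and 944 to 1067 TPM. Unlike with vehicle, *Msr1* was the higher of the pair in each mouse but mouse 2. *Marco*, at 86.0 ± 37.2 TPM, came to lie above *Scarb2*, at 77.9 ± 10.2 TPM. The ranges of *Marco* and *Scarb2* overlapped, from 33.5 to 119 TPM for *Marco* and from 68.5 to 88.3 TPM for *Scarb2*. *Marco* made up 0.110% to 0.141% of the summed TPM of the 6 genes with vehicle and 0.641% to 2.67% with bilirubin. It thus remained a small part of the transcripts of this group.

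**Figure D1:**
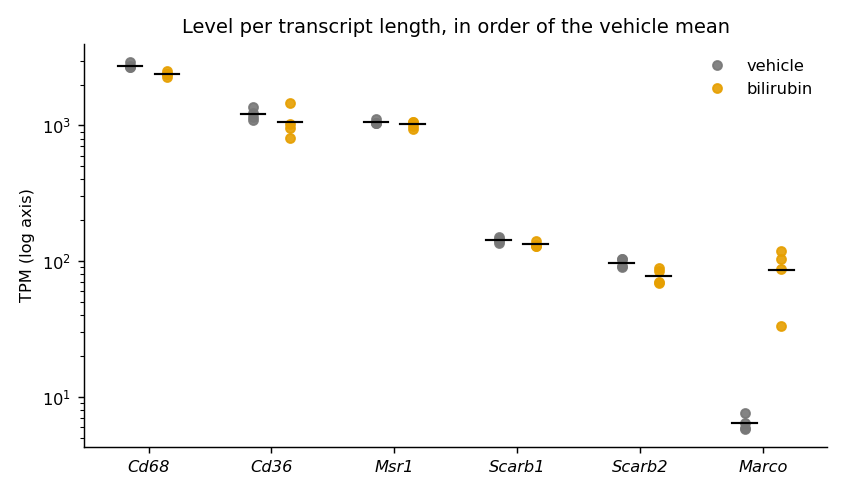
TPM of each gene (log axis) in the 4 vehicle libraries (grey) and the 4 bilirubin libraries (orange), with a line at each mean, ordered by the vehicle mean. *Cd68* is highest at 2755 TPM, *Cd36* and *Msr1* overlap, and *Marco* moves from 6.42 to 86.0 TPM, into the range of *Scarb2*.

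*Marco* encodes the macrophage receptor with collagenous structure, which binds bacteria, modified lipoproteins and inhaled particles and is found on subsets of resident macrophages. The gene lies on the minus strand of chromosome 1, from 120402267 to 120432753 (GRCm39). Counts on the gene were 400, 251, 289 and 308 in the vehicle libraries of mice 1 to 4 and 4572, 1439, 4789 and 4216 in their bilirubin libraries. After scaling, these were 8.41, 6.65, 6.63 and 7.24 CPM with vehicle and 132, 39.8, 119 and 105 CPM with bilirubin. All bilirubin values lay above all vehicle values, and the bilirubin culture of mouse 2 was the lowest of its group. The fitted fold change was 13.0, the eighth largest of the 616 rises in the test of all genes, where it was used to choose this gene. Vehicle cultures varied by 11.6% (SD over mean), more than the 5.66% that counting alone would give at this depth, and bilirubin cultures by 41.3%, against 1.63% from counting.

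The counts on *Marco* came from a single transcript model. *Marco-201*, which has 17 exons and codes for 518 residues, took at least 99.8% of them in every library. The stretch around its start is shown because this is the gene with the largest difference of the group. It runs from 250 bases before the start to 25 bases into the transcript (chr1:120432729-120433003, minus strand, GRCm39). Capitals mark the only match among the 6 motifs searched in each start region, with NF-κB searched as a consensus of that name, AP-1 as TGANTCA, the antioxidant response element (ARE) as TGACNNNGC, PU.1 as GAGGAA, STAT as TTCNNNGAA and the E-box as CACGTG, on both strands; AP-1 and ARE can match the same bases.
*Marco* start region: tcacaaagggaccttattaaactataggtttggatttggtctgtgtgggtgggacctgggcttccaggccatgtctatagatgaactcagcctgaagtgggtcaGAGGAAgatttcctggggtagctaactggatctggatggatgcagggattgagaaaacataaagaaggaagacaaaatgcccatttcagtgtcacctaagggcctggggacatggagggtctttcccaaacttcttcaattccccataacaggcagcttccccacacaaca
The match to PU.1, a factor that macrophages use throughout their development, begins 146 bases before the start. The same letters occur in 25.1% of 21757 start regions of this length, so the match does not set *Marco* apart. No match to the other 5 motifs was found in this window, and the letters outside the window were not searched. GRCm39 is a reference of another mouse strain, so that BALB/cJ bases may differ.

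**Figure D2:**
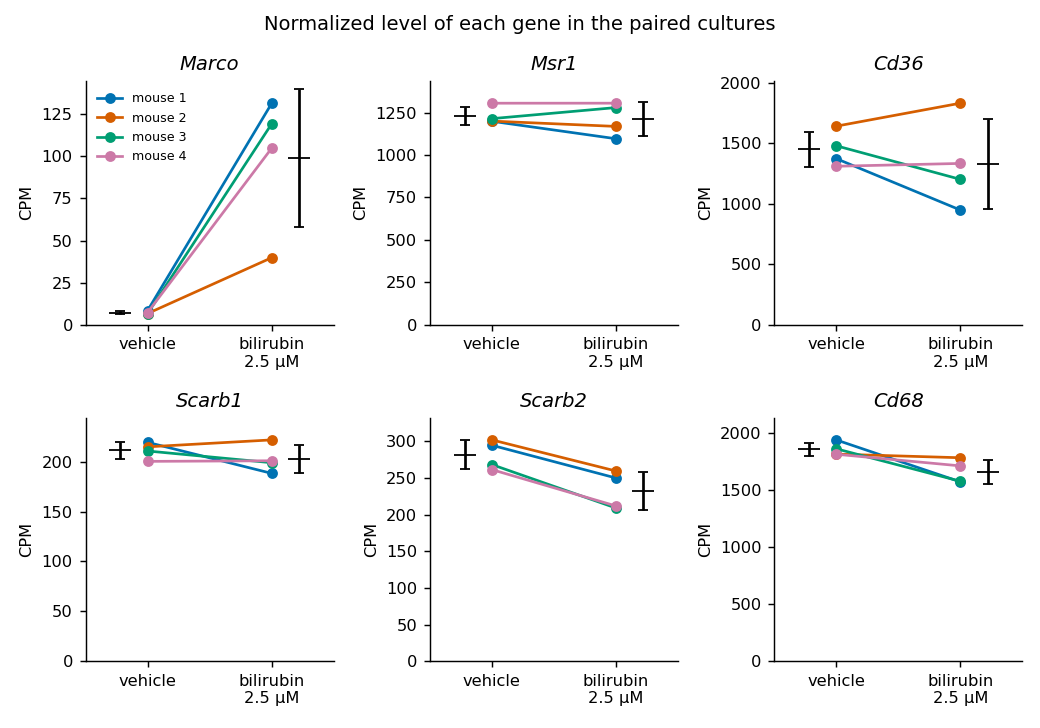
CPM of the 6 genes in the vehicle and bilirubin cultures, with a line for each mouse and, beside them, the mean ± SD of each group; each axis starts at 0. *Marco* is below 8.5 CPM in every vehicle culture and between 39.8 and 132 CPM with bilirubin, with mouse 2 lowest, while *Scarb2* and *Cd68* lie lower with bilirubin and the groups of the other 3 genes overlap.

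*Msr1* encodes the other class A receptor, SR-A, which takes up modified low-density lipoprotein and binds bacterial surface molecules. It lies on chromosome 8 from 40034726 to 40095714 (minus strand, GRCm39). Its values were 1199, 1200, 1215 and 1306 CPM with vehicle and 1096, 1169, 1280 and 1306 CPM with bilirubin. The groups overlapped, and the log2 differences within mice 1 to 4 were -0.13, -0.04, 0.08 and 0.00. The fitted log2 fold change was -0.02 ± 0.04 (SE), a fold change of 0.984, in the same cultures in which *Marco* was 13.0-fold higher.

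*Msr1* counts were split between transcripts that code for the known forms of SR-A. *Msr1-202* codes for 354 residues, the short form that lacks the cysteine-rich end, and *Msr1-201* codes for 458 residues and has that end. *Msr1-202* took 68.1% to 70.1% of the counts with vehicle and 67.3% to 69.9% with bilirubin. *Msr1-201* took 22.4% to 24.8% and 23.1% to 25.6%. Since *Msr1-202* is 3636 bases long and *Msr1-201* 1424 bases, the forms were nearly level per length, at 35.9% ± 0.807 and 33.6% ± 1.30 of the gene's TPM with vehicle (SD, n = 4). Most of the remaining TPM was on short models, *Msr1-203* (691 bases, coding part incomplete) with 13.8% and *Msr1-205* (421 bases, no coding part defined) with 15.8%. These took 4.00% and 2.24% of the counts with vehicle. The ranges of *Msr1-201* and *Msr1-202* overlapped between vehicle and bilirubin. The coding stretches present only in the long form are printed because they are what separates the receptors that the counts were assigned to; they code for the cysteine-rich end.
*Msr1-201*, 189 coding bases (chr8:40042331-40042519, minus strand): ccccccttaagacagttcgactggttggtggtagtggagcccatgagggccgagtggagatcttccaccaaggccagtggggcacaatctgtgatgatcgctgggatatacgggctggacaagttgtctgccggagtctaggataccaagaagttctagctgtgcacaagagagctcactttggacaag
*Msr1-201*, last 131 coding bases (chr8:40034776-40034906, minus strand): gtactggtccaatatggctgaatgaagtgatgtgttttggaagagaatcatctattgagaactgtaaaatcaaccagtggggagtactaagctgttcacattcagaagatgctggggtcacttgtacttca
In place of these, *Msr1-202* has 8 coding bases of its own (chr8:40059016-40059023).

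*Cd36* encodes a class B receptor that takes up oxidized lipoproteins and long-chain fatty acids. It lies on chromosome 5 from 17986432 to 18094067 (minus strand, GRCm39). It was at 1373, 1640, 1479 and 1309 CPM with vehicle and at 947, 1830, 1201 and 1333 CPM with bilirubin. The mice went different ways, with log2 differences of -0.53 and -0.30 in mice 1 and 3 and of 0.16 and 0.03 in mice 2 and 4. *Cd36* was the most variable of the group after *Marco*, by 28.0% (SD over mean) among bilirubin cultures against 9.98% among vehicle cultures. The fitted log2 fold change of -0.16 ± 0.10 did not pass, and it was -0.04 without mouse 1 and -0.27 without mouse 2.

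*Cd36* counts were assigned to transcripts whose annotated starts lie far apart. All of the transcripts that are complete in the annotation code for the same 472 residues. The upstream start stands for 2 transcripts that begin close together. It took 60.2%, 62.1%, 59.8% and 60.6% of the counts in the vehicle libraries and 62.7%, 59.8%, 61.7% and 61.7% in the bilirubin libraries. The downstream start, 52841 bases further along the gene, with 2 other transcripts, took 36.3%, 35.3%, 37.3% and 35.8% with vehicle and 33.4%, 37.3%, 35.0% and 34.3% with bilirubin. A middle start took 2.65% to 4.01%. The shares overlapped between the groups for each start, although the gene's level in mouse 1 and mouse 2 moved in opposite directions. One upstream model is short, at 702 bases, and its coding part is incomplete in the annotation. It weighs more per length, and with it the upstream start held 71.0% ± 0.720 of the gene's TPM with vehicle and 71.4% ± 0.719 with bilirubin.

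**Figure D3:**
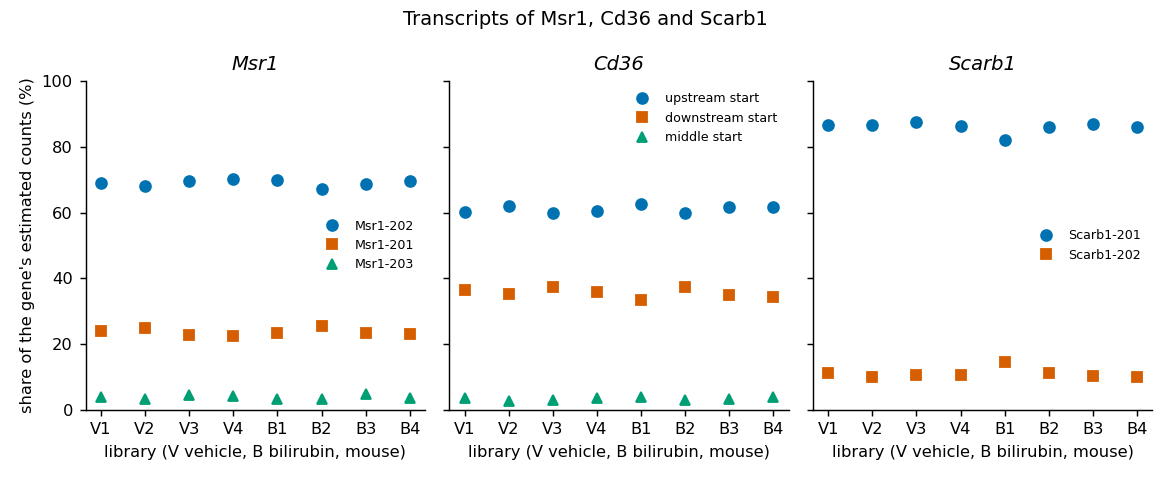
Share of each gene's estimated counts (%) on the transcripts of *Msr1*, on the start sites of *Cd36* and on the transcripts of *Scarb1*, for each of the 8 libraries (V vehicle, B bilirubin, numbered by mouse). The ranges of vehicle and bilirubin overlap for each form or start, *Scarb1-202* being highest in the bilirubin culture of mouse 1 (14.5%) and *Msr1-201* in that of mouse 2 (25.6%).

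*Scarb1* encodes SR-BI, the receptor for high-density lipoprotein through which cells take up cholesterol esters selectively. It lies on chromosome 5 from 125353547 to 125418176 (minus strand, GRCm39). Its values were 219, 215, 211 and 200 CPM with vehicle and 188, 222, 199 and 201 CPM with bilirubin. These groups overlapped, and the fitted log2 fold change was -0.06 ± 0.05. The lowest value was again that of mouse 1 with bilirubin. *Scarb1-201* (SR-BI, 509 residues) took 86.3% to 87.4% of the counts with vehicle and 82.1% to 86.9% with bilirubin. *Scarb1-202* (506 residues, with the other cytoplasmic end known as SR-BII) took 11.2%, 10.1%, 10.7% and 10.6% with vehicle and 14.5%, 11.1%, 10.4% and 10.0% with bilirubin. Apart from mouse 1, the share of SR-BII in the bilirubin cultures lay within the range of the vehicle cultures or just below it. The coding ends are printed because the forms differ in no other coding bases.
*Scarb1-201* end, 126 coding bases (chr5:125358172-125358297, minus strand): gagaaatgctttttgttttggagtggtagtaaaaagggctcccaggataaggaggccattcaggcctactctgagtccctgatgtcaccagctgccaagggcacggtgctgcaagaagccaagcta
*Scarb1-202* end, 117 coding bases (chr5:125354813-125354929, minus strand): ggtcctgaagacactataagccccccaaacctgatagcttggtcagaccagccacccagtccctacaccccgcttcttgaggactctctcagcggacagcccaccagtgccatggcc

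*Scarb2* encodes LIMP-2, a class B protein of the lysosome membrane with a role in the transport of lysosomal enzymes. It lies on chromosome 5 from 92589169 to 92654692 (minus strand, GRCm39). It was at 295, 302, 268 and 262 CPM with vehicle and at 250, 260, 209 and 212 CPM with bilirubin. The groups did not overlap, by a narrow margin between the lowest vehicle culture (262 CPM, mouse 4) and the highest bilirubin culture (260 CPM, mouse 2). Within mice the log2 difference was -0.24, -0.22, -0.36 and -0.30, the least variable of the group (SD 0.06). The fitted value was -0.28 ± 0.04, a fall of 17.6%, which was called with the mouse in the model. Without the mouse in the model it was not called (log2 fold change -0.28). The start region is printed because it held the most matches to the searched motifs of the group, beside that of *Cd68*.
*Scarb2* start region (chr5:92653472-92653746, minus strand): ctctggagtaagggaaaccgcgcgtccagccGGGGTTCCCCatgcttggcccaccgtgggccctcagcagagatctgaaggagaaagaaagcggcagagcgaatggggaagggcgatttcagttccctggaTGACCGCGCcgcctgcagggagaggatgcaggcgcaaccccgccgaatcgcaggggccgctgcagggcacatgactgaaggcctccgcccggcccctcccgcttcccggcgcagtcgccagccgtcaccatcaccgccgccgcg
Capitals mark the NF-κB match, 219 bases before the start, and the ARE match, 119 bases before it. These motifs occur in 8.31% and 11.1% of all start regions of this length. The main transcript, *Scarb2-201*, took at least 99.7% of the counts in every library.

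*Cd68* encodes macrosialin, a heavily glycosylated protein of the LAMP family in late endosomes and lysosomes that is widely used as a macrophage marker. It lies on chromosome 11 from 69555037 to 69557067 (minus strand, GRCm39). It was at 1943, 1818, 1866 and 1817 CPM with vehicle and at 1575, 1787, 1580 and 1715 CPM with bilirubin. All bilirubin values were below all vehicle values, but the size of the difference varied, from -0.30 in mouse 1 to -0.03 in mouse 2 on the log2 scale. The fitted log2 fold change was -0.16 ± 0.05, a value 10.7% lower, which was not called. It was called with DESeq2 (-0.16), with library size alone for scaling (-0.19) and without a filter on low counts (-0.17). *Cd68-201* took at least 98.7% of the counts in every library. Its start region held a PU.1 match 154 bases and an AP-1 match 78 bases before the start, that of *Msr1-202* a STAT match 89 bases before it, and that of *Scarb1* no match. AP-1 and STAT matches occur in 6.76% and 8.28% of start regions.

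**Figure D4:**
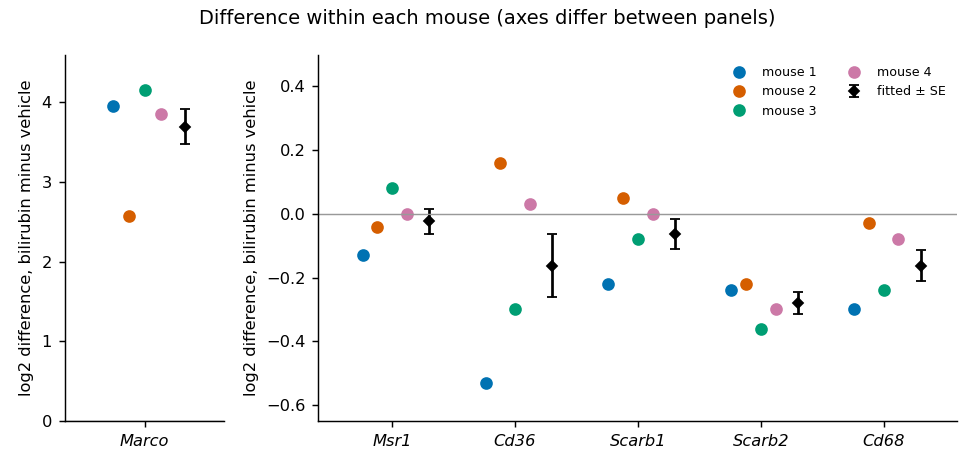
Log2 difference of CPM between the bilirubin and the vehicle culture of each mouse (coloured points) and the fitted log2 fold change ± SE (black); *Marco* has an axis of its own. *Marco* lies between 2.57 and 4.16, *Scarb2* below 0 in all mice, and *Cd36* on both sides of 0.

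Of the 6 genes, whose median log2 fold change was -0.11, *Marco* was called higher and *Scarb2* lower in the test of all genes, and 4 were not called. Over the 13722 genes tested, 7.53% were called, 4.49% higher and 3.04% lower. Because *Marco* was chosen for its value in the same contrast, nothing is read from the members' share. With library size alone for scaling, 48.7% of the called genes were higher, against 59.6% with TMM, and the directions of *Marco* and *Scarb2* were the same with both. All 6 genes passed the filter on low counts in both groups. The annotation lists 11 genes that overlap them, mostly on the opposite strand, of which *Gm42633* and *Mir6415* were matched in the table and had at most 3 counts.

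The next question was which genes followed each receptor across the 8 libraries. The measure was Pearson's r of log2 CPM over 10905 other genes whose average was not below 1; the libraries share the mice and fall into groups by treatment, so r is a description. The genes most like *Marco* were *Tlr2*, *Zmiz2*, *Cxcl16*, *Cybb*, *Rassf4* and *Mmp14*, with r between 0.993 and 0.999. Each of these was higher in all 4 mice and least so in mouse 2, a pattern that the choice by likeness to *Marco* fixed. *Tlr2*, a receptor for bacterial lipoproteins, had log2 differences of 1.32, 0.91, 1.43 and 1.33 in mice 1 to 4. *Mmp14*, a membrane-bound matrix protease, had differences of 2.45, 1.85, 2.95 and 2.58, the nearest of the 6 to *Marco* in size. *Cybb*, a subunit of the phagocyte NADPH oxidase, had 1.01, 0.69, 1.03 and 0.84. Mouse 2 had the smallest rise for 44.0% and mouse 1 for 39.4% of all 616 genes called higher, so a small rise in mouse 2 was common among called genes.

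Which genes ranked as most like a receptor depended on whether differences between mice were kept, for *Marco* as for the others. *Man2b1* (a lysosomal mannosidase), *Abcc3* and *Mfsd6* were most like *Scarb2* (r of 0.991, 0.991 and 0.988), and all were lower in 4 of 4 mice, which the choice again fixed. The log2 fold change of *Man2b1* was -0.27 ± 0.04. *Tmem184c*, *Rce1* and *Ctsh* (cathepsin H) were most like *Cd68*, with r between 0.962 and 0.971, *Terf2ip*, *Atf3* and *Sars* most like *Cd36*, with 0.982 to 0.983, *Leprotl1*, *Bag3* and *Ptp4a1* most like *Scarb1*, with 0.972 to 0.979, and *Eif4a1*, *Pitpnb* and *Ctps* most like *Msr1*, with 0.977 to 0.992. Of these 12 genes, *Ctsh* alone was called, with a log2 fold change of -0.28 ± 0.07. With the mouse means removed, 2 of the 6 genes named for *Marco* and 0 of the 3 named for each other receptor were again the most like. The genes named for the other receptors still had r between 0.933 and 0.994, so their ranks moved more than their likeness. Within the group itself, r was highest between *Cd36* and *Scarb1* (0.90), both of which were lowest in the bilirubin culture of mouse 1 and highest in that of mouse 2.

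Beyond these 6, a list of 25 other scavenger receptors was examined, of which 17 passed the filter on low counts, 7 did not and *Cd163l1* was not matched. *Cxcl16*, a membrane-bound chemokine that binds oxidized lipoproteins, was the only one called higher, and *Lrp1*, a large endocytic receptor, the only one called lower, with 15 not called, beside the 7.53% called among all tested genes. The median log2 fold change of the 17 was 0.07, against 0.00 over all tested genes. *Cxcl16* was at 73.3, 68.1, 68.1 and 69.6 CPM with vehicle and at 153, 113, 135 and 140 CPM with bilirubin. These groups were far apart, and the log2 fold change was 0.95 ± 0.05 (edgeR, adjusted p = 5.33e-05, 4 of 4 mice). *Lrp1*, among the most abundant at 4034 ± 112 CPM with vehicle, fell to 3338 ± 243 CPM. Its log2 fold change was -0.28 ± 0.04 (edgeR, adjusted p = 0.00305, lower in 4 of 4 mice), but with an offset for transcript length it was -0.23 and not called (adjusted p = 0.088).

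Among those not called, several were abundant. *Colec12*, a membrane collectin of class A, had 1004 ± 18.4 CPM in vehicle cultures and 943 ± 37.9 CPM in bilirubin cultures (log2 fold change -0.09 ± 0.03). *Stab1*, a clearance receptor, had -0.42 ± 0.12 and *Mrc1*, the mannose receptor CD206, had -0.40 ± 0.17, each higher in mouse 1 and lower in the other 3. Without mouse 1, *Stab1* and *Mrc1* were called lower (log2 fold changes of -0.59 and -0.65), a fall that leaving out the only mouse with a rise was bound to strengthen. Calls in the list went from 2 to 7, while calls over all genes went from 1033 of 13722 to 1910 of 13758. *Cd44*, the hyaluronan receptor, had 0.11 ± 0.03 and *Lgals3bp* 0.38 ± 0.11, higher in 4 of 4 mice each. *Clec7a*, the beta-glucan receptor dectin-1, and *Scarf1* were at 29.7 and 27.9 CPM with vehicle, with -0.04 ± 0.07 and 0.07 ± 0.07. *Olr1*, the lectin-like receptor for oxidized lipoprotein, and *Cd163*, the receptor for haptoglobin bound to hemoglobin, had 1.39 and 1.05 CPM with vehicle, with log2 fold changes of 0.17 ± 0.25 and -0.46 ± 0.37, and were not called. *Scara5* had no counts in any library, and *Asgr1* and *Cd6* had at most 1.

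**Figure D5:**
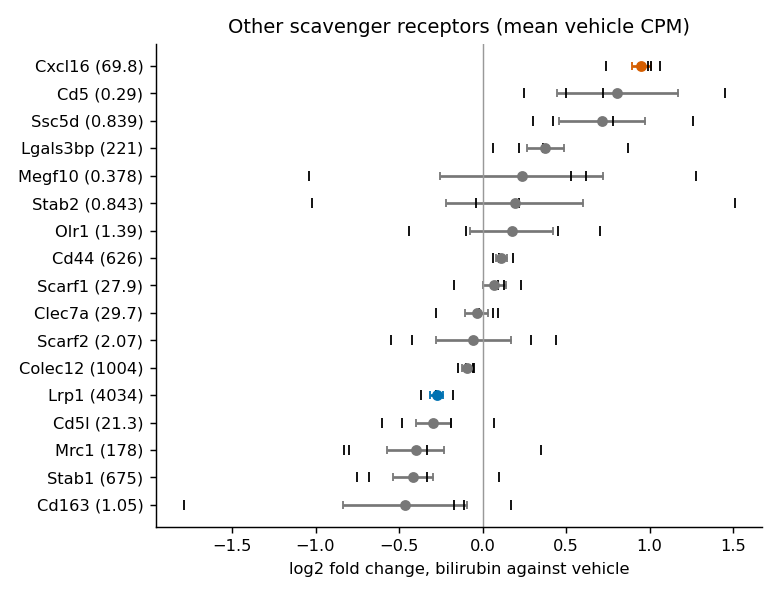
Log2 fold change ± SE of the 17 other scavenger receptors tested (points; orange called higher, blue called lower, grey not called), with the 4 mice as black ticks and the mean vehicle CPM beside each name. *Cxcl16* stands at 0.95 and *Lrp1* at -0.28, and receptors below 3 CPM have ticks spread on both sides of 0 or far apart.

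Of 20 listed receptor partners and signalling proteins, all tested, 6 were called higher, 3 lower and 11 were not called, beside 7.53% of all tested genes called (4.49% higher and 3.04% lower), with a median log2 fold change of -0.03. The list was drawn up with earlier results of these data known, so nothing is read from its share. *Tlr2*, which works with *Marco* and *Cd36* in sensing bacterial products, rose from 52.6 ± 2.17 to 126 ± 21.0 CPM (log2 fold change 1.25 ± 0.08, edgeR, adjusted p = 7.58e-05). *Src*, a kinase downstream of such receptors, rose by 1.39 ± 0.09 (adjusted p = 7.58e-05), *Cav1*, the coat protein of caveolae, by 1.51 ± 0.13 (adjusted p = 0.000398) and the tetraspanin *Cd82* by 0.59 ± 0.05 (adjusted p = 0.000253). *Itgb2*, the beta chain of the leukocyte integrins, rose by 0.38 ± 0.05 and *Syk*, a kinase of immune receptors, by 0.22 ± 0.03. The genes called lower were the integrin chains *Itgb5* (-0.49 ± 0.06) and *Itgb1* (-0.13 ± 0.03) and the adaptor *Fcer1g* (-0.14 ± 0.03). All 9 changed the same way in 4 of 4 mice. *Syk* was not called without mouse 3 or mouse 4 (adjusted p = 0.0666 and 0.0586), and *Itgb1* and *Fcer1g* were not called without mouse 2, 3 or 4 (adjusted p-values of 0.109 to 0.207), without the mouse in the model (0.0578 and 0.0945) or with the length offset (0.0586 and 0.0564). *Tlr4* and *Tlr6*, also partners of *Cd36*, were not called, with 0.11 ± 0.06 and 0.06 ± 0.06.

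Of 20 genes for lipid handling after uptake, 18 were tested, 3 were called higher, 2 lower and 13 were not called, beside 7.53% of all tested genes called, with a median of 0.05. Nothing is read from this share either, for the same reason. *Abca1*, which exports cholesterol, was at 13.9 ± 1.84 CPM with vehicle and at 33.2 ± 10.5 CPM with bilirubin (SD, n = 4). Its log2 difference was 1.78, 0.81, 1.44 and 0.79 in the 4 mice, and the fitted value was 1.22 ± 0.16 (edgeR, adjusted p = 0.00251). The acyl-CoA synthetases *Acsl1* and *Acsl4* rose by 0.52 ± 0.07 and 0.30 ± 0.05. *Plin2*, a coat protein of lipid droplets, fell by 0.27 ± 0.06 on the log2 scale, and *Nceh1*, a cholesterol ester hydrolase, had -0.15 ± 0.03. All 5 went the same way in 4 of 4 mice, but only *Abca1* and *Acsl1* were called whichever mouse was left out. *Acsl4* had adjusted p-values of 0.083 and 0.0616 without mouse 3 and mouse 4, *Plin2* of 0.189 and 0.0934, and *Nceh1* of 0.219 and 0.162, and of 0.0664 without mouse 2. Neither *Plin2* nor *Nceh1* was called without the mouse in the model (0.135 and 0.0731) or with the length offset (0.059 and 0.0635). *Lpl*, *Lipa*, *Soat1* and *Abcg1*, which take part in lipoprotein breakdown, storage and export, were not called, with log2 fold changes between -0.02 and 0.15.

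The 16 listed transcription factors were all tested, with 4 called higher, 3 lower and 9 not called, beside 7.53% of all tested genes called. This list too was drawn up with earlier results known, and nothing is read from its share. *Fos*, a part of AP-1, rose by 0.45 ± 0.04 (edgeR, adjusted p = 0.000594), *Nr1h3*, the oxysterol receptor LXR alpha, by 0.42 ± 0.06 (adjusted p = 0.00314), *Tfec* by 0.28 ± 0.06 and *Nfe2l2*, which encodes NRF2, by 0.19 ± 0.04. *Cebpa* fell by 0.41 ± 0.04 (adjusted p = 0.000481), and *Rxra* was called lower with a log2 fold change of -0.20 ± 0.05. Each of these changes was in the same direction in 4 of 4 mice, that of *Rxra* being -0.01 in mouse 1. *Tfec* was not called without mouse 3 or mouse 4 (adjusted p = 0.166 and 0.165), and *Nfe2l2* and *Rxra* were not called without mouse 2, 3 or 4 (adjusted p-values of 0.0551 to 0.249). None of these 3 was called with the length offset (0.0828 to 0.132), *Rxra* was not called without the mouse in the model (0.127) and *Nfe2l2* not with library size alone (0.0635). *Spi1*, which encodes PU.1, had 0.08 ± 0.03 and *Pparg*, a known activator of *Cd36*, had -0.23 ± 0.10 at 9.77 CPM with vehicle, and neither was called. The NF-κB genes *Nfkb1* and *Rela* had 0.16 ± 0.04 and 0.11 ± 0.04, higher in 4 of 4 mice and not called.

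Around *Scarb2* and *Cd68*, of 16 genes of the LAMP family and the lysosome membrane, 13 were tested, none was called higher, 1 was called lower and 12 were not called, a share near the 7.53% called among all tested genes. The median log2 fold change was -0.06. *Laptm5*, a lysosomal protein of blood cells, fell by 0.18 ± 0.03 on the log2 scale in 4 of 4 mice (edgeR, adjusted p = 0.0111). It was not called without mouse 3 or mouse 4 (adjusted p = 0.0974 and 0.109) or without the mouse in the model (0.1). *Lamp1* and *Lamp2*, at 1855 and 427 CPM in vehicle cultures, had log2 fold changes of -0.03 ± 0.03 and -0.12 ± 0.03 and were not called. *Cd63*, a tetraspanin of the lysosome membrane, had 0.02 ± 0.03. *Lamp3* and *Lamp5* had at most 3 counts in any library.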

How the data were processed

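RNA was measured in 8 libraries, 4 per group, paired by the culture number in the labels, which was taken as the mouse. Across genes, deviations from the group mean correlated within mice 1 to 4 at 0.108, 0.134, 0.108 and -0.005. Per the labels, the tools were bcl2fastq 2.20.0.422, Trim Galore 0.6.7 with cutadapt 3.4, STAR 2.7.9a, Salmon 1.10.1 and R 4.2.2, on GRCm39. The authors deposited a table of estimated counts per gene, not normalized, of which 88.45% are whole numbers, and for each library the estimated counts, effective length and TPM of every transcript, and TPM was summed here per gene. Strand settings of the counting are not given in the sources used here.

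After rounding, the table went into edgeR 4.0.16 under R 4.3.3 (quasi-likelihood, TMM, mouse and treatment in the model, filter of at least 10 counts and 15 in total, prior count of 2 for log2 CPM). P-values were adjusted by Benjamini-Hochberg over 13722 genes, with a threshold of 0.05. Each SE was the absolute log2 fold change divided by the root of F. The 13 alternatives were DESeq2 1.42.0, voom and trend of limma 3.58.1, a model without the mouse, 2 other scalings, 2 other filters, a length offset and each mouse left out. Intervals of counting error assume independent reads.

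The members and lists were chosen with earlier results of these data known, so nothing is read from the share of a list that was called. The rule named all 6 members, up to 6 called genes of each list in each direction and its listed genes at the floor of 3 counts, and the 6 genes most like *Marco* and 3 most like each other member. Uncalled genes of the lists with known roles were also named after their values were seen. Sequences were read from the GRCm39 genome, and start sites and coding stretches from its annotation. Some listed genes and one start region are not reported here.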

Additional observations from a re-analysis of the deposited data

Results flagged for a closer look

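Among 34 sets of 4 values (levels and differences of the 6 genes and shares of their main transcripts), 2 held a value far from the other 3, where chance marks about 1 in 20. The vehicle culture of mouse 4 had 1306 CPM of *Msr1*, and its gap to the next was 0.854 of the range of the vehicle cultures. The bilirubin culture of mouse 2 had 25.6% of its *Msr1* counts on *Msr1-201*, with a gap of 0.866 of the range.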

How the results depend on the processing

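Of 78 values of the 6 genes under 13 alternatives, 73 kept their call and 5 did not, and 1 had the other sign (*Msr1*, 0.01 without mouse 1, not called). *Marco* was chosen for its value in this contrast and the others as its family, so nothing is read from the number that kept their call. *Scarb2* was no longer called without the replicate block (log2 fold change -0.28), *Cd68* became called with DESeq2 (-0.16), library size alone (-0.19) and no filter (-0.17), and *Cd36* with no filter (-0.17). The cause was not tested. Leaving out 1 mouse gave 3.52 to 4.00 for *Marco*, -0.06 to 0.01 for *Msr1*, -0.27 to -0.04 for *Cd36*, -0.10 to -0.01 for *Scarb1*, -0.30 to -0.25 for *Scarb2* and -0.21 to -0.12 for *Cd68*.

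The 616 genes called higher and 417 called lower became 458 and 228 without the replicate block for paired mice, 372 and 207 with the length offset, 918 and 774 with no filter, and 265 to 1026 and 112 to 884 without 1 mouse (1026 and 884 without mouse 1, 265 and 112 without mouse 3). Calls among other scavenger receptors were 6 with no filter, 1 with the length offset and 2 to 7 without 1 mouse (7 without mouse 1). Those in lipid handling were 3 without the block and with the offset, and 2 to 7 without 1 mouse. Those among transcription factors were 3 with the offset and 3 to 9 without 1 mouse, and those among receptor partners 6 to 12. Lysosome membrane calls were 2 with library size alone and with no filter, 0 without the block, and 0 to 3 without 1 mouse. The order of the 6 genes in vehicle cultures was the same in CPM per kilobase.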

Other observations

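Among 106 listed genes that were tested, the 6 receptors and the markers included, 11 were higher with bilirubin in mouse 1 and lower in the other 3 mice, a pattern picked out after the values were seen. The share of all tested genes with this pattern was not counted, so nothing is read from the number of genes that had it. The log2 differences in mice 1 to 4 were 0.10, -0.68, -0.33 and -0.75 for *Stab1*, a clearance receptor. They were 0.35, -0.83, -0.33 and -0.80 for *Mrc1*, the mannose receptor, and 0.47, -0.66, -0.28 and -0.54 for *Maf*, a transcription factor of macrophages. For the tetraspanin *Cd81* they were 0.07, -0.68, -0.47 and -0.66, for *Fcgr1*, a receptor for antibodies, 0.40, -0.59, -0.26 and -0.35, and for *Csf1r*, the M-CSF receptor, 0.26, -0.15, -0.02 and -0.15. The others were *Pxn*, *Ctns*, *Lamp1*, *Cd163* and *Ocstamp*, the last of which had at most 30 counts. None of the 11 was called with all mice. Without mouse 1, *Stab1*, *Mrc1*, *Maf*, *Cd81*, *Fcgr1* and *Ctns* were called lower, and the first 5 of these were also called lower with no filter on low counts. Since the genes were picked for a rise in mouse 1 alone, leaving it out was bound to strengthen their fall. Nothing is read from these calls. Over all genes, 1033 were called in the main fit, 1910 without mouse 1 and 1692 with no filter. In *Msr1*, *Cd36*, *Scarb1* and *Cd68* mouse 1 had the lowest difference of the 4 mice, at -0.13, -0.53, -0.22 and -0.30. The bilirubin library of mouse 1 also had the fewest counts of the 8, and the part of depth in these differences was not tested.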
